A study of Ovis aries with 30 samples.

Results

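Circadian clock genes, 10 in number, were followed in brown adipose tissue (BAT) and thyroid tissue of newborn Romney lambs. They are CLOCK, the period genes PER1, PER2 and PER3, the cryptochrome genes CRY1 and CRY2, the nuclear receptor genes NR1D1 and NR1D2, and the output genes DBP and TEF. They were chosen by symbol, as 10 of the 28524 genes of the count table, and all 10 passed the filter on low counts in both tissues (at least 10 reads in at least 10 libraries). RNA was sequenced from BAT around the kidneys and from the thyroid gland of 15 lambs that stayed with their dams. Of these, 6 cold lambs spent 2 days at 4 °C, 6 ambient-temperature (AT) lambs spent 2 days at 20–22 °C, and 3 control lambs were sampled at the start, about 24 h after birth per the labels. The treated lambs were therefore 2 days older than the controls, so treatment and age cannot be told apart in any comparison with the controls, and only cold against AT compared lambs of one age. The hour of sampling is not given in the sources used here, so time of day cannot be told apart from lamb, treatment or age either. The number of a lamb links its BAT library with its thyroid library.

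The clock is a loop of transcription that runs in nearly every cell. CLOCK pairs with ARNTL (also called BMAL1), and the pair switches on the PER, CRY and NR1D genes. The PER and CRY proteins then block the pair, while the NR1D proteins (REV-ERB alpha and beta) repress ARNTL. DBP and TEF, 2 related leucine zipper factors, carry the rhythm to other genes, DBP being itself switched on by the pair. Peripheral tissues are set by signals from the brain, by feeding and by glucocorticoids, and in brown fat the clock is known for its part in the daily rhythm of heat production.

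The levels are given as normalized counts, which are the deposited counts divided by a size factor of each library taken from the reference genes ACTB, RPL19 and HUWE1 within the tissue. The libraries held 31556500 to 37025998 counts in BAT and 25062784 to 30124871 in thyroid tissue. In BAT, 2 unnamed genes took 43.8% to 76.5% of all counts. The study left out 1 control, lamb 238, and the fits here used the same 2 controls, lambs 237 and 246. In the thyroid, lamb 238 stood apart for several clock genes. Its thyroid library also differed, with 27.8% of its counts in the same 2 unnamed genes, against 5.18% to 14.9% in the other thyroid libraries. It had the lowest total there (25062784), with 18098434 counts outside the 2 genes. The part of this in the fits that include lamb 238 was not tested. The thyroid libraries of AT lamb 240 and control lamb 237 held skeletal muscle RNA, with 8.40% and 0.963% of their counts in 8 muscle marker genes against at most 0.0145% in the other 13. Markers of thyroid follicular cells were present in the thyroid of every group (summed normalized counts of 1275300 or more). This sum was mostly TG. Of the 8 markers, SLC26A4 was at most 0.93 in any thyroid library, and the others were at 1344 or more. Summed markers of brown adipocytes in BAT ranged from 584 to 87194. Summed brown adipocyte markers were higher in the BAT of the controls than in treated lambs. They were 20795 and 24318 in the 2 controls used, 87194 in lamb 238, 4451 to 15702 in cold lambs and 584 to 15562 in AT lambs. The control sum was mostly UCP1 (18667 and 20367, and 82999 in lamb 238, against 2813 to 11790 in the cold and 192 to 12308 at AT). PPARGC1A and DIO2 had lower medians in treated lambs but overlapping ranges. CIDEA did not fall (medians of 1091 in controls, 1050 in the cold and 1217 at AT). Against the controls, 0 of the 4 markers tested were called in BAT. The part of these markers in the clock gene differences was not tested. In bulk tissue fewer cells of a type cannot be told apart from less RNA per cell.

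A gene was called where its log2 fold change (log2FC) was at least 1 in size and its adjusted p was under 0.05 in edgeR's quasi-likelihood test. In BAT, 1 of the 10 clock genes was called in cold lambs against controls (TEF, upregulated), beside 1.21% of all 14905 genes tested. In AT lambs against controls, 3 of 10 were called (DBP and TEF upregulated, CRY1 downregulated), beside 6.07% of all genes. In thyroid tissue, 2 of 10 were called in the cold against controls and 2 of 10 at AT against controls, in each case CRY1 (downregulated) and DBP (upregulated), beside 8.04% and 7.8% of the 16122 genes tested. Both treated groups were compared with the same 2 controls, so the repeat of CRY1 and DBP is not a second measurement. Cold against AT, at one age, gave 0 of 10 calls in BAT (0.275% of all genes) and 0 of 10 in thyroid tissue (0.0%). At an unadjusted p under 0.05 these counts were 2 (PER3 and DBP) and 0, beside 1831 of 14905 and 870 of 16122 genes. DESeq2 also called 0 of 10 in either tissue. The median log2FC of the 10 genes against the controls was 0.42 (cold) and 0.51 (AT) in BAT, where that of all genes was -0.10 and -0.03. In thyroid tissue it was -0.06 and -0.17 beside -0.28 and -0.28.

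**Figure D1:**
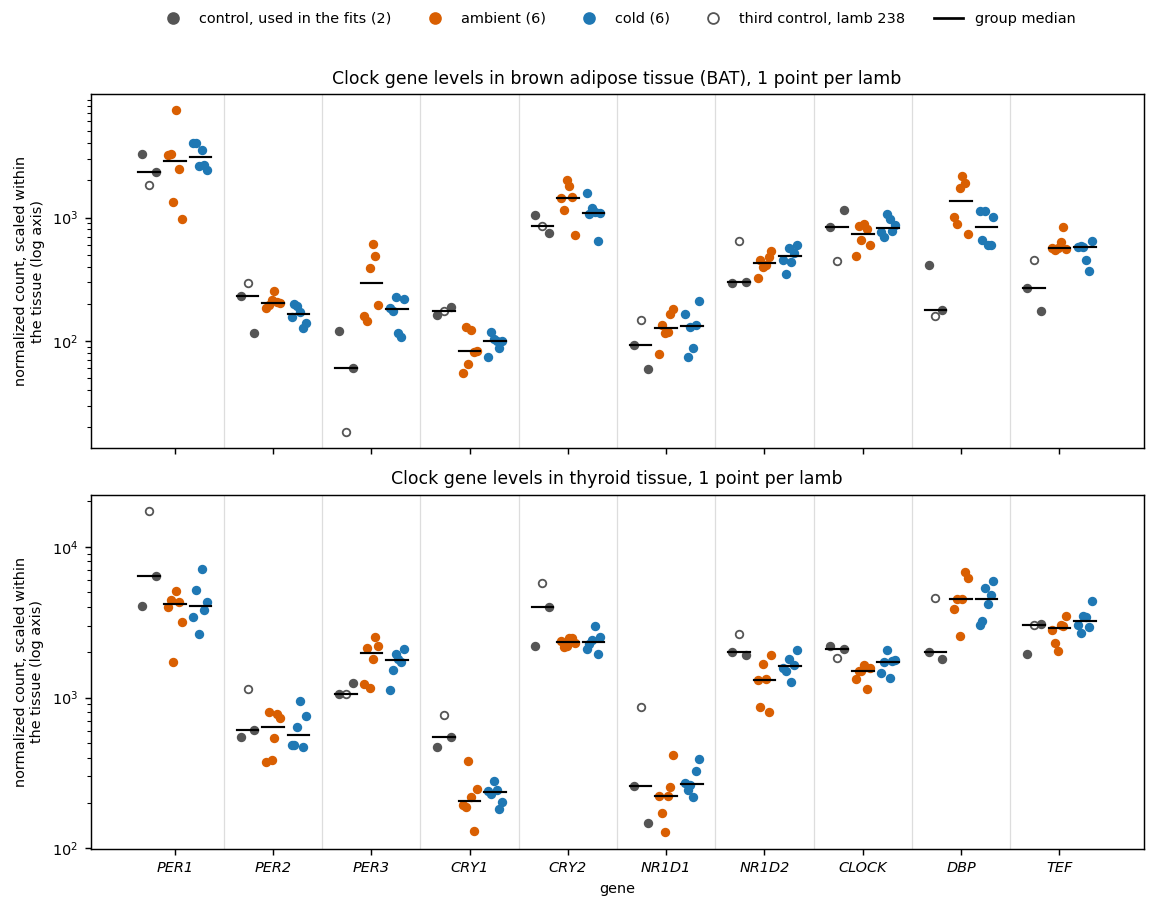
Normalized counts of the 10 clock genes in BAT (upper) and thyroid tissue (lower) on a log axis, 1 point per lamb, with bars at the group medians and the third control (lamb 238) as an open point. In BAT all 12 treated lambs lie above every control for DBP and below every control for CRY1, and in the thyroid lamb 238 has the highest PER1 (17236) and NR1D1 (868).

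DBP (chr14:58729502-58735067, minus strand, in Oar_rambouillet_v1.0) showed the widest difference between treated lambs and controls. In BAT its normalized count was 413 and 179.7 in control lambs 237 and 246 and 159 in lamb 238. The AT lambs ran from 734 over a median of 1369 to 2148, and the cold lambs from 601 over 837 to 1124. All 12 treated lambs were above all 3 controls. At AT, DBP was upregulated (log2FC 2.15 ± 0.49 SE, 6 lambs against 2, adjusted p = 0.0156), and the call stood in every alternative run for this comparison. In the cold its log2FC was 1.45 ± 0.47, which was not called (adjusted p = 0.118), but it was with all 3 controls (1.76, adjusted p = 0.0225) and by DESeq2 (1.44, adjusted p = 0.0236). In thyroid tissue the 2 controls were at 1990.2 and 1792, the cold lambs between 3040.1 and 5902 (median 4474) and the AT lambs between 2544 and 6832 (median 4499.7), with no overlap. DBP was upregulated there in the cold (1.22 ± 0.34, adjusted p = 0.0236) and at AT (1.32 ± 0.34, adjusted p = 0.0156). Lamb 238, however, had a thyroid DBP of 4537, inside the range of the treated lambs. With all 3 controls the log2FC was 0.67 (adjusted p = 0.189) and 0.77 (adjusted p = 0.133), and the calls were also lost with lamb 238 in the place of 237 (0.48 and 0.58) or of 246 (0.43 and 0.53).

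TEF (chr3:233359074-233382226, plus strand) encodes the second factor of this family. In BAT it was at 268 and 174 in the 2 controls, at 369 to 645 in the cold lambs (median 581) and at 542 to 838 at AT (median 566), so that neither treated group overlapped the 2 controls. The third control, at 456, lay within the range of the cold lambs. TEF was upregulated at AT (1.40 ± 0.27, adjusted p = 0.00783) and in the cold (1.19 ± 0.27, adjusted p = 0.0396). The cold call was narrow. It was lost with all 3 controls (0.85, adjusted p = 0.0695), without cold lamb 232, 234, 235 or 244 (1.14 to 1.19, adjusted p between 0.0524 and 0.0703), and with lamb 238 in the place of 237 (0.79) or 246 (0.59). The AT call held with all 3 controls (1.05) and was lost with lamb 238 in the place of 237 (1.01, adjusted p = 0.0565) or 246 (0.81, adjusted p = 0.0682). In the thyroid, TEF was at 1942, 3048 and 3091 in the 3 controls, between 2696 and 4372 in the cold and between 2040.3 and 3447 at AT. All groups overlapped, and the log2FC was 0.40 ± 0.23 and 0.13 ± 0.23 (adjusted p = 0.229 and 0.702).

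CRY1 (chr3:188085923-188174055, minus strand), a repressor of the CLOCK and ARNTL pair, was lower in treated lambs in both tissues. Its BAT level was 162, 189 and 176 in control lambs 237, 246 and 238. In AT lambs it ran from 54.6 over a median of 82.7 to 130.2, and in cold lambs from 74.2 over 99.97 to 119. No treated lamb reached a control. At AT it was downregulated (-1.06 ± 0.29, adjusted p = 0.0322), while in the cold the log2FC was -0.93 ± 0.29 (adjusted p = 0.102). The AT value sat at the fold threshold, at -0.97 with all 3 controls, with the adjusted p still at 0.0259, and the call was lost under TMM scaling of all genes (-0.98) or median-of-ratios scaling (-0.996), when only AT lambs and controls were fitted (adjusted p = 0.0875), without lamb 233 (-0.94), 240 (-0.96) or 243 (adjusted p = 0.0518) and with lamb 238 in the place of 246 (-0.88, adjusted p = 0.0725). In thyroid tissue the controls were at 468, 546 and 764, the cold lambs at 182 to 278 (median 236) and the AT lambs at 129 to 377 (median 206), again without overlap. CRY1 was downregulated in the cold (-1.14 ± 0.29, adjusted p = 0.0169) and at AT (-1.17 ± 0.29, adjusted p = 0.0132). With all 3 controls it was at -1.36 and -1.39 (adjusted p = 0.00525 and 0.00500). Scaling moved these values, since the median log2FC of all thyroid genes was -0.28 with the reference genes and 0.02 (cold) or 0.05 (AT) with TMM. Under TMM, CRY1 fell short of a call in thyroid tissue, at -0.84 (adjusted p = 0.0533) and -0.85 (adjusted p = 0.0510), while DBP stayed called, at 1.51 and 1.65. In the thyroid, brown adipocyte markers summed to 1584 and 2680.5 in the 2 controls used, 12064 in lamb 238 and 608 to 1121 in the treated lambs. Most of this was PPARGC1A (1286 and 2177 in the 2 controls, 10831 in lamb 238 and 536 to 1029 in the treated lambs). UCP1 (medians of 328 in all 3 controls, 10.7 in the cold and 16.8 at AT) and DIO2 (129, 40.9 and 49.2) were also lower. CIDEA was not (47.2, 46.7 and 57.7). Adipocyte markers had a median log2FC of 0.81 in the cold and 1.31 at AT, with 0 of 5 called. The part of these markers in the CRY1 and DBP values was not tested.

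CRY2 (chr15:82132453-82167370, plus strand), the other cryptochrome gene, was called in none of these comparisons. Its BAT levels were 1056 and 749.8 in the 2 controls and 859 in lamb 238, 643 to 1579 in the cold and 718 to 2029 at AT. Its thyroid levels were among the most even of the 10 genes in treated lambs, at 1938 to 3002 in the cold and 2155 to 2479 at AT. The 3 controls, at 2189, 3954 and 5728, were spread more widely. The log2FC was 0.21 ± 0.34 and 0.58 ± 0.35 in BAT and -0.37 ± 0.20 and -0.41 ± 0.20 in thyroid tissue (cold and AT, adjusted p of at least 0.148). With lamb 238 in the place of 237, thyroid CRY2 was called in the cold (-1.03, adjusted p = 0.00182) and at AT (-1.05, adjusted p = 0.00164).

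**Figure D2:**
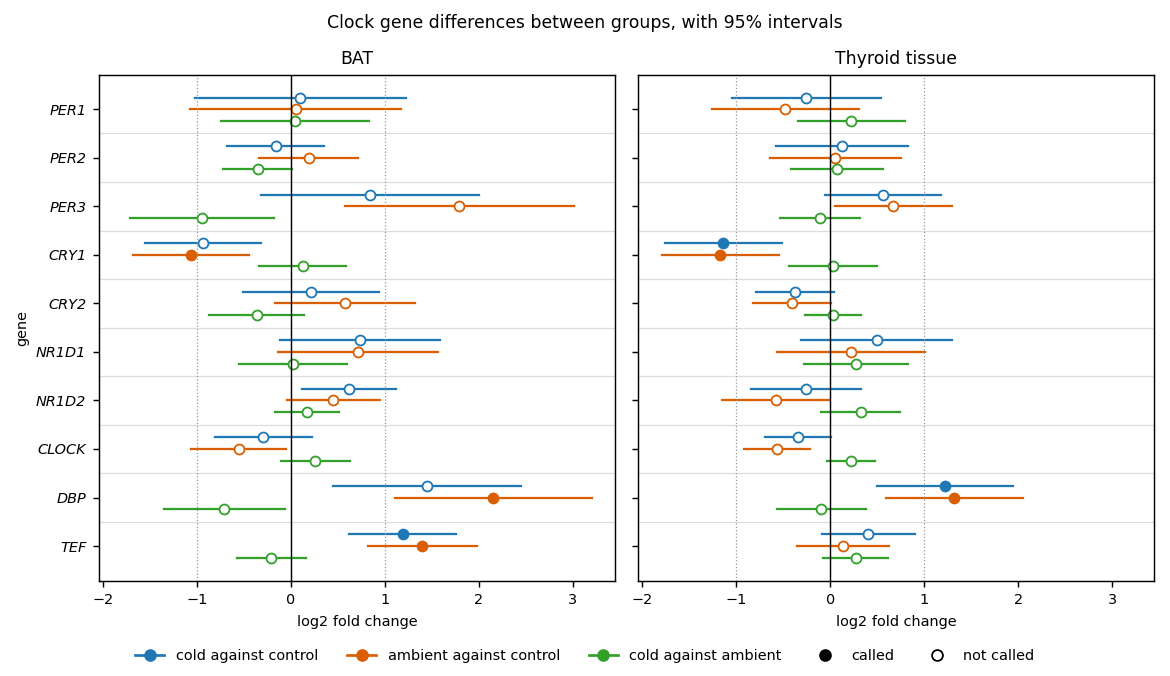
Log2 fold changes with 95% intervals for each clock gene, BAT on the left and thyroid tissue on the right, for cold against control, AT against control and cold against AT, filled where called; dotted lines mark a log2FC of 1 in size. DBP and CRY1 lie on opposite sides of 0 against the controls in both tissues, and no cold against AT value is called.

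The PER genes encode the partners of the cryptochromes. PER3 (chr12:49088046-49159335, minus strand) had the larger differences. In BAT it stood at 121 and 60.8 in the 2 controls, at 18.4 in lamb 238, between 145 and 612 at AT (median 293) and between 108 and 226 in the cold (median 181). At AT its log2FC of 1.79 ± 0.57 missed the threshold (adjusted p = 0.0621). It passed under TMM (1.81, adjusted p = 0.0333), with all 3 controls (2.28, adjusted p = 0.0178) and by DESeq2 (1.78, adjusted p = 0.00781). In the cold it was 0.84 ± 0.55 (adjusted p = 0.442). In the thyroid PER3 stood at 1052 to 1249.7 in the 3 controls, 1157 to 2531 at AT and 1129 to 2086 in the cold, with a log2FC of 0.67 ± 0.29 and 0.56 ± 0.29 that was not called.

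PER1 (chr11:35633496-35648948, plus strand), which is also induced quickly by glucocorticoids and cyclic AMP, had the highest SD of the 10 genes over both treated groups together. Its SD within the treated groups was 0.77 on the log2 scale in BAT, where the median of all genes was 0.37. The AT lambs made most of this spread, with deviations of -1.37 to 1.55 from their group mean. In the cold lambs they were -0.38 to 0.36, narrower than those of NR1D1 (-0.75 to 0.74). At AT it ran from 969.8 in lamb 245 to 7356 in lamb 241 (median 2855), in the cold from 2406 to 4009 (median 3086), and the controls were at 3261, 2356 and 1832. The log2FC was 0.10 ± 0.53 and 0.05 ± 0.53, with 95% intervals from -1.02 to 1.22 and from -1.07 to 1.17. In thyroid tissue the controls were at 4059.7, 6439.8 and, in lamb 238, 17236. The cold lambs were between 2629.5 and 7123 and the AT lambs between 1715 and 5088. With the 2 controls PER1 was at -0.25 ± 0.37 and -0.48 ± 0.37 (adjusted p = 0.664 and 0.364), but with lamb 238 added it was at -1.07 in the cold (adjusted p = 0.0759) and called at AT (-1.29, adjusted p = 0.0390). With lamb 238 in the place of 237 it was called in the cold (-1.42, adjusted p = 0.0225) and at AT (-1.64, adjusted p = 0.0119).

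PER2 (chr1:2865726-2903741, plus strand) was called in neither tissue. In BAT its levels were 232 and 117 in the 2 controls and 296 in lamb 238, the highest of all, 128 to 199.5 in the cold and 186 to 256 at AT, and its SD within the treated groups, 0.21 on the log2 scale, was at percentile 8.66 of the genes tested. In the thyroid it was at 547 and 608 in the 2 controls, at 1137 in lamb 238 and at 376 to 947 in the treated lambs. Its log2FC against the 2 controls lay between -0.16 and 0.19 in both tissues (adjusted p of at least 0.667). The choice of control moved it, in BAT in the cold to -0.37 with all 3 controls (adjusted p = 0.384) and to -0.66 with lamb 238 in the place of 246 (adjusted p = 0.0707), and in BAT the log2FC of cold against AT was -0.35 ± 0.17 (adjusted p = 0.428).

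NR1D1 and NR1D2 close the second loop of the clock by repressing ARNTL. NR1D1 (chr11:22783393-22790281, plus strand) shares 200 of its exon bases, 10.8%, with THRA on the opposite strand, and whether the counting used the strand is not given in the sources used here. In BAT it was at 93.4 and 59.4 in the 2 controls and 147 in lamb 238, at 74.3 to 212 in the cold (median 133) and at 78.1 to 181 at AT (median 126). The log2FC was 0.73 ± 0.40 and 0.71 ± 0.40 (adjusted p = 0.358 and 0.276). Its thyroid level in lamb 238 was 868, above the 127 to 419 of all other lambs. There the log2FC was 0.50 ± 0.38 and 0.22 ± 0.37 and was not called. With all 3 controls the direction turned, to -0.57 (adjusted p = 0.395) and -0.84 (adjusted p = 0.198). NR1D2 (chr26:45582323-45611460, minus strand) was above the 2 controls (295 and 303) in all 12 treated lambs in BAT (324 to 604), while lamb 238 had 639.9. Its log2FC was 0.62 ± 0.24 and 0.45 ± 0.23 in BAT and -0.25 ± 0.27 and -0.58 ± 0.27 in thyroid tissue (adjusted p of at least 0.135). With all 3 controls the BAT values were 0.25 and 0.08. Its thyroid level was 2003 and 1918 in the 2 controls, 2623 in lamb 238 and 806 to 2066 in the treated lambs.

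CLOCK (chr6:78022481-78146741, minus strand), the activator, was not called. Its thyroid level was 2188, 2082 and 1827 in control lambs 237, 246 and 238, 1356 to 2054 in the cold and 1145.5 to 1647 at AT, so that the AT lambs lay below every control. The log2FC at AT was -0.56 ± 0.16, with an adjusted p of 0.0258 but under the fold threshold, where the median of all genes was -0.28, and in the cold -0.34 ± 0.17 (adjusted p = 0.150). Under TMM the AT value was -0.25 (adjusted p = 0.315), and the adjusted p rose to 0.0729 when only AT lambs and controls were fitted and to 0.112 or 0.0883 with lamb 238 in the place of 237 or 246. In BAT, CLOCK was at -0.29 ± 0.24 and -0.56 ± 0.24 (adjusted p = 0.559 and 0.156), and with lamb 238 in the place of 246 at 0.43 and 0.18. Its partner ARNTL had a log2FC between -0.66 and -0.52 against the controls in both tissues and both treatments, and it was not called (adjusted p of at least 0.122). With TMM its thyroid values were -0.22 (cold) and -0.15 (AT). With lamb 238 in the place of 246 its BAT values were -0.23 and -0.29. With lamb 238 in the place of 237, ARNTL was called in the thyroid in the cold (-1.02, adjusted p = 0.0100). NPAS2, which can take the place of CLOCK, was not called either, but it was in the thyroid with lamb 238 in the place of 246 (1.04 in the cold, adjusted p = 0.0384, and 1.01 at AT, adjusted p = 0.0479).

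No clock gene was called between cold and AT lambs, while in BAT the intervals of 2 lay wholly below 0. The log2FC of cold against AT in BAT was -0.95 ± 0.36 for PER3 (95% interval -1.72 to -0.18, adjusted p = 0.316) and -0.71 ± 0.30 for DBP (-1.35 to -0.07, adjusted p = 0.369). For both genes the cold and AT lambs overlapped. The other 8 genes lay between -0.37 and 0.26. In thyroid tissue all 10 lay between -0.11 and 0.33, and the widest interval, that of PER1, ran from -0.34 to 0.79. The upper bound of NR1D1, 0.83, was the highest of the 10 thyroid intervals.

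A list of 21 further clock genes was taken beside the members, of which 19 passed the filter in BAT and 18 in thyroid tissue. Against the controls, 0 of 19 were called in BAT in the cold, beside 1.21% of all genes. At an unadjusted p under 0.05 it was 5 of 19, beside 2704 of 14905 genes. In BAT at AT, where 6.07% of all genes were called, 1 was upregulated and 1 downregulated. These were BHLHE41 (1.82 ± 0.49, adjusted p = 0.0293) and BHLHE40 (-1.66 ± 0.36, adjusted p = 0.0130), which encode related repressors of the CLOCK and ARNTL pair. In thyroid tissue in the cold, where 8.04% of all genes were called, 1 of 18 was upregulated. It was TIMELESS (1.05 ± 0.29, adjusted p = 0.0215), better known for its work at replication forks in mammals. Downregulated were 2, namely NFIL3 (-1.42 ± 0.41, adjusted p = 0.0273), which binds the same sites as DBP and represses, and USP2 (-1.05 ± 0.34, adjusted p = 0.0454), a deubiquitinase. At AT, 0 of 18 were called in the thyroid, beside 7.8% of all genes. At an unadjusted p under 0.05 it was 10 of 18, beside 5888 of 16122 genes. In cold against AT, 0 were called in either tissue, beside 0.275% of all genes in BAT and 0.0% in the thyroid. At an unadjusted p under 0.05 it was 3 in BAT and 0 in the thyroid, beside 1831 of 14905 and 870 of 16122 genes.

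The tissues were compared in one fit, with both tissues on one scale. This fit had no term for the lamb, so it took the 2 libraries of a lamb as independent. A fit with the lamb as a block was run as an alternative. Of the 12 treated lambs, all 12 had lower PER3 and lower TEF in BAT than in their thyroid. PER3 had a median of 316 in BAT and 1180.5 in the thyroid (BAT against thyroid -1.50 ± 0.22, adjusted p = 8.39e-07), and TEF 950.2 and 1920.5 (-1.01 ± 0.12, adjusted p = 2.53e-08). PER1 was higher in BAT in 11 of 12 lambs, with medians of 4896 and 2637 (1.01 ± 0.25, adjusted p = 0.000645). These 3 of 10 calls stand beside 35.8% of the 14403 genes tested in both tissues, and at the adjusted p alone it was 9 of 10, all but CRY1, beside 74.4%. Of these 9, PER2 was lost with the lamb as a block (adjusted p = 0.0748), PER2, NR1D1 and NR1D2 with all 3 controls, and CRY2, NR1D1 and CLOCK with TMM. The fold depends on the scaling, since the median of all genes was 0.39 with the reference genes and 0.00 with TMM. With TMM the calls were PER3 (-1.94), TEF (-1.41) and DBP (-1.11), and PER1 was at 0.57. With the lamb as a block, PER1 was at 0.92, under the fold threshold.

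A response that differed between the tissues was tested as the difference of their log2FCs. TEF rose more in BAT than in thyroid tissue at AT (difference 1.32 ± 0.34, adjusted p = 0.0412), the only one of the 10 genes called, beside 2.23% of all genes. The difference was 1.30 (adjusted p = 0.0565) with the lamb as a block, 0.93 (adjusted p = 0.181) with TMM and 1.06 (adjusted p = 0.0590) with all 3 controls, so the call rested on the settings. With all 3 controls CRY2 was called in its place (difference 1.48, adjusted p = 0.0238). For the cold response 0 of 10 were called, beside 0.25% of all genes. At an unadjusted p under 0.05 it was 2 (NR1D2 and TEF), beside 1770 of 14403 genes. For cold against AT 0 of 10 were called, beside 0.00694% of all genes. At an unadjusted p under 0.05 it was 1 (TEF), beside 1090 of 14403 genes.

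The order of the clock genes by level was compared within each tissue by normalized counts per kilobase of exon, over the 12 treated lambs. DBP came first in both tissues, with a median of 1039 per kilobase in BAT and 4601 in thyroid tissue, and PER1 second, with 554 and 779. In BAT, CRY2 (299) and TEF (129) followed, each of these 4 being above the next in at least 10 of 12 lambs and all 4 in this order in 8 of 12. CLOCK (72.1), NR1D1 (71.7) and NR1D2 (64.8) could not be ordered, since CLOCK was above NR1D1 in 6 of 12 lambs and NR1D1 above NR1D2 in 7. PER2 (45.3), PER3 (35.8) and CRY1 (29.1) were lowest of the members. In the thyroid TEF (674) was not apart from PER1, which was above it in 7 of 12 lambs. CRY2 (599.5), PER3 (339.6) and NR1D2 (220.4) came next. CLOCK (139.9), PER2 (137) and NR1D1 (135) were level, with each above the next in 7 and 6 of 12 lambs, and CRY1 (69.3) was below them.

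Whether the clock genes of a lamb agree between its tissues was asked of the 12 treated lambs. For each gene, the log2 deviation of a lamb from its group mean in BAT was correlated with that in its thyroid, with an exact permutation test that paired lambs anew within their group. NR1D1 had r = 0.57 (exact p = 0.0436) and Spearman's rho = 0.63 (exact permutation p = 0.0368), with r = 0.82 in the 6 cold and 0.50 in the 6 AT lambs. Its deviations were high in both tissues in lambs 244 (0.74 and 0.47) and 245 (0.51 and 0.92) and low in both in lambs 234 (-0.75 and -0.21) and 239 (-0.52 and -0.35). Without the 2 lambs farthest from the median in BAT (234 and 233) r was 0.72 (exact permutation p = 0.00535), but leaving out one lamb at a time gave an exact p of up to 0.138, without lamb 245. PER1 had r = 0.61 (exact p = 0.0520) and rho = 0.65 (exact permutation p = 0.0279), with r = 0.40 in the cold and 0.74 at AT. Lamb 241 was high in both tissues (1.55 and 0.51) and lamb 240 low in both (-0.90 and -1.06), and lamb 240 is the one whose thyroid held muscle RNA. Without lamb 240 r was 0.50 (exact permutation p = 0.0283), and without the 2 lambs farthest from the median in BAT (245 and 241) it was 0.71 (exact permutation p = 0.0578).

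**Figure D3:**
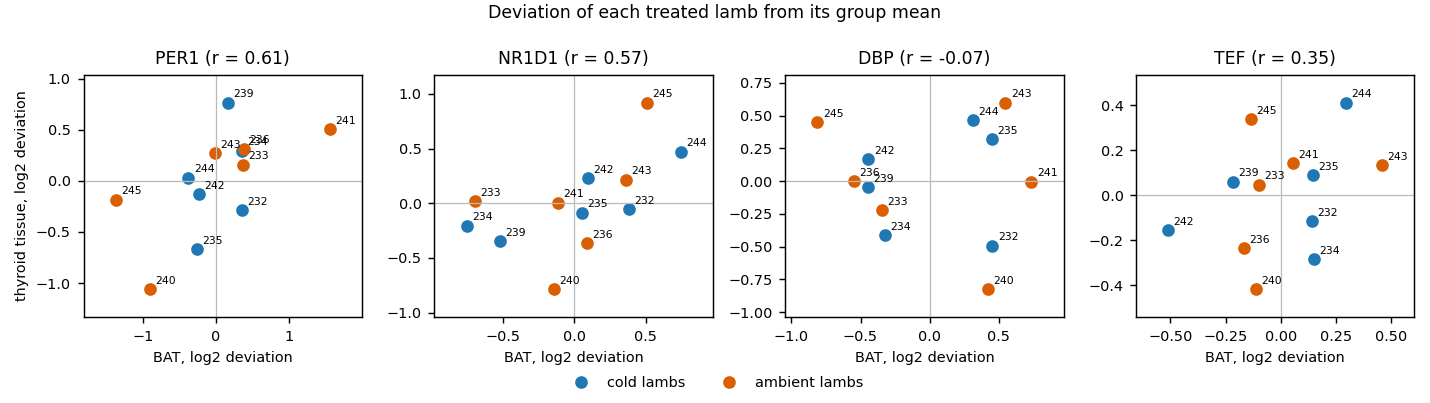
Log2 deviation of each of the 12 treated lambs from the mean of its group in BAT (horizontal) and thyroid tissue (vertical) for PER1, NR1D1, DBP and TEF, with the lamb number beside each point. PER1 (r = 0.61) and NR1D1 (r = 0.57) run from lower left to upper right, while DBP (r = -0.07) shows no slope.

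The other 8 genes had r between -0.17 and 0.35, all with an exact p of at least 0.282. DBP, the gene with the widest difference from the controls in BAT, had r = -0.07 (exact permutation p = 0.860, rho = -0.06). Lamb 245 shows this, with the lowest BAT deviation of DBP (-0.81) and one of the higher thyroid deviations (0.45), and lamb 240 the reverse (0.42 and -0.83). PER3 had r = 0.07, PER2 0.04, CRY1 -0.17, CRY2 0.21, CLOCK 0.17 and TEF 0.35. NR1D2, at 0.22 in all, was at 0.74 in cold and -0.02 in AT lambs, with an exact p of 0.0972 in the cold. So 1 of the 10 genes had a positive r with an exact p under 0.05, beside 9.62% of the 14403 genes tested in both tissues. The median r of the 10 was 0.190, and that of all genes was 0.191. After adjustment over all genes none had an adjusted p under 0.05, of the members (0.464 for NR1D1 and 0.490 for PER1) or of any gene. Counted by sign, the deviations of the members agreed in 69 of 120 lamb and gene pairs (57.5%), and those of all genes in 56.5%. Single lambs ranged from 3 of 10 (232 and 240) to 9 of 10 (235). ARNTL, outside the members, had r = 0.80 (exact permutation p = 0.00880, rho = 0.69), at 0.98 in AT lambs and 0.16 in cold lambs. It fell to 0.44 without AT lambs 245 and 243, so that relation rests on them. NPAS2 had r = -0.41 (exact permutation p = 0.186).

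**Figure D4:**
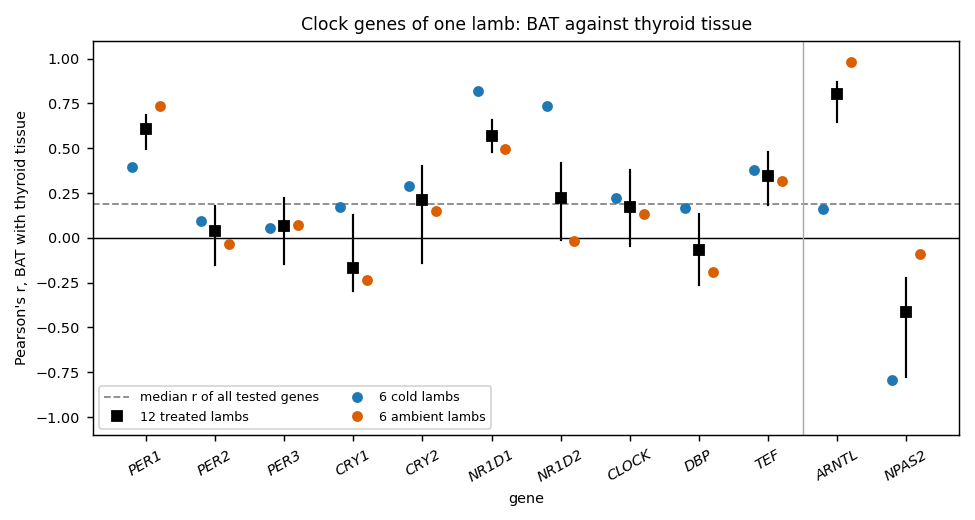
Pearson's r between BAT and thyroid tissue of the same lamb for each clock gene, over 12 treated lambs (squares, with lines spanning the values when each lamb is left out), 6 cold lambs and 6 AT lambs; the dashed line is the median of all tested genes (0.191). NR1D1 and PER1 lie highest of the members, ARNTL above them, and NPAS2 lowest.

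Within a tissue, the clock genes were correlated with one another across the same 12 lambs. Both genes of a pair share the size factor of a library, and its part in these correlations was not tested. Of the 45 pairs of members, 7 in BAT and 8 in thyroid tissue had an exact p under 0.05, all positive. These are 7 of 45 beside 11.9% of pairs of a member with any tested gene in BAT, and 8 of 45 beside 13.2% in the thyroid. The median r of the 45 pairs was 0.292 and 0.265, and that of all gene pairs was 0.20 and 0.07. None had an adjusted p under 0.05 over all gene pairs of the members, the lowest being 0.0910 for PER3 with DBP in thyroid tissue. PER3 and DBP were the closest pair in both tissues, with r = 0.90 in BAT (exact permutation p = 0.00231, rho = 0.87) and r = 0.90 in the thyroid (exact permutation p = 6.0e-05, rho = 0.94). Leaving out each lamb kept this pair between 0.88 and 0.93 in BAT and between 0.86 and 0.93 in the thyroid. DBP and TEF went together in both, at 0.64 and 0.79, as did PER2 and PER3, at 0.52 and 0.84. In BAT neither of these held with TMM, at 0.41 for DBP with TEF (exact permutation p = 0.197) and 0.14 for PER2 with PER3 (exact permutation p = 0.638), and leaving out 1 lamb brought the latter down to 0.35.

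**Figure D5:**
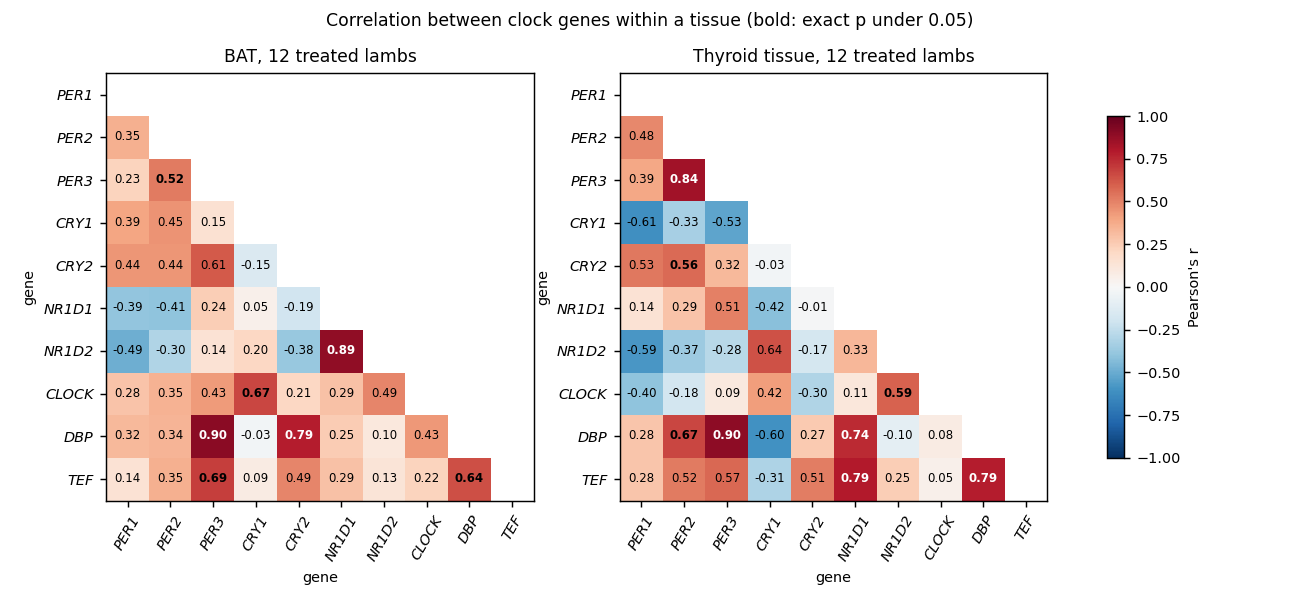
Pearson's r between each pair of clock genes over the 12 treated lambs, after removal of the group means, BAT on the left and thyroid tissue on the right, in bold where the exact p is under 0.05. PER3 with DBP is at 0.90 in both tissues, and NR1D1 with NR1D2 is at 0.89 in BAT and 0.33 in the thyroid.

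Other pairs stood out in 1 tissue. In BAT, NR1D1 and NR1D2 had r = 0.89 (exact permutation p = 0.000559), CRY2 and DBP 0.79, PER3 and TEF 0.69 and CRY1 and CLOCK 0.67. With TMM, PER3 with TEF was at 0.46 (exact permutation p = 0.135) and CRY1 with CLOCK at 0.62 (exact permutation p = 0.0634). In thyroid tissue NR1D1 went with TEF (0.79) and DBP (0.74), PER2 with DBP (0.67) and CRY2 (0.56), and NR1D2 with CLOCK (0.59), while NR1D1 with NR1D2 was at 0.33. Whether a pair differed between the tissues was not tested.

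Library measures also moved with some of these genes, in 26 of 220 relations of the members with 11 measures (totals, scaling and marker sums) at an exact p under 0.05, beside 9.89% of those of all genes. In thyroid tissue, PER3 was lower in libraries with a higher total count (r = -0.91, exact permutation p = 2.31e-05), as were DBP (r = -0.88, exact permutation p = 0.000120), PER2 (r = -0.73) and TEF (r = -0.65), in a narrow range of totals. This was 4 of 10 members beside 13.3% of all thyroid genes, and after adjustment over all genes none had an adjusted p under 0.05 (0.187 for PER3). In BAT 0 of 10 members had an exact p under 0.05 for the total, beside 5.84% of all genes. The BAT size factor relative to the total went with CRY2 (r = -0.71) and DBP (r = -0.61), 2 of 10 beside 17.7% of all genes. BAT muscle markers, at most 0.000963% of the counts there in treated lambs, went with PER2 (r = 0.74) and PER3 (r = 0.76), also 2 of 10, beside 16.8%. BAT endothelial markers went with NR1D2 (r = 0.69) and CLOCK (r = 0.63), beside 9.47%. In the thyroid, adrenal cortex markers went with 5 of 10, the most of any measure, beside 20.4% of all genes. These were PER2 (r = 0.75), NR1D2 (r = -0.68), CRY2 (r = 0.65), PER1 (r = 0.64) and PER3 (r = 0.61). This marker sum was small in treated lambs, at 40.3 to 116.5 normalized counts in the cold and 46.8 to 87.1 at AT. CYP17A1 had the highest median of its genes in both groups. STAR had thyroid medians of 21.5 in the cold and 16.1 at AT, and HSD3B1 of 1.85 and 5.4. CYP11A1 was at 0 in the thyroid of every cold lamb, and at AT its median was 0 and its highest value 7.92. Whether the thyroid samples held adrenal tissue was not tested. The thyroid muscle marker sum went with NR1D1 (r = -0.70, the highest sum being that of lamb 240), 1 of 10 beside 12.5%. The thyroid size factor relative to the total went with NR1D1 (r = 0.76), CRY1 (r = -0.75) and TEF (r = 0.59), 3 of 10 beside 14.8%. The share of thyroid counts in the 2 unnamed genes went with NR1D1 (r = -0.73) and TEF (r = -0.65), 2 of 10 beside 13.8%. The part of these measures in the correlations was not tested. Without lamb 240, 6 pairs in BAT and 6 in thyroid tissue had an exact p under 0.05.

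The genes most like DBP and NR1D1 across the 12 lambs were looked up among all named genes outside the members. In BAT, DBP was followed most closely by KLHL21 (r = 0.95), TBCEL (0.95) and ZFYVE26 (0.95), and NR1D1 by SALL2 (0.86), C9H8orf37 (0.84) and GYPC (0.82). In thyroid tissue these were ABHD14B (0.92), CCDC82 (0.90) and RAB25 (0.90) for DBP, and GABARAPL1 (0.89), LONRF1 (0.88) and INO80B (0.87) for NR1D1. No gene was in the lists of both tissues. These are the highest of the correlations with all genes tested and are given as a description.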

How the data were processed

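The deposited table holds whole-number counts per gene and library, which the authors made from oligo(dT)-captured RNA sequenced as pairs of 150-base reads on a BGISEQ-500, by quality control in FastQC 0.11.9, trimming in Trimmomatic 0.39, alignment with STAR 2.7.7a to Oar_rambouillet_v1.0 with RefSeq annotation, and featureCounts (Subread 2.0.0) with reads of several places counted at each. Genes with near-identical copies therefore share reads. Chromosome numbers follow the majority of gene symbols per sequence in a RefSeq table of another build, and coordinates are those of the deposited table. No promoter or protein sequence was used here.

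Groups came from the labels, and all 30 columns of counts were used, with 0 columns left unmapped. The 2 controls of the study (lambs 237 and 246) were identified by its supplementary normalized counts being proportional to their libraries. The lowest chi-square per degree of freedom between 2 libraries was 38.4 in BAT and 29.5 in thyroid tissue, so none was a copy of another. Counts were tested per tissue with edgeR 4.0.16 (R 4.3.3), robust, all 3 groups in one fit, with DESeq2 1.42.0 size factors of ACTB, RPL19 and HUWE1, and adjusted by Benjamini-Hochberg over all genes passing the filter. Both tissues were fitted together for differences between them, by group only, with the lamb as a block in an alternative. The SE is the log2FC over the root of F. Correlations used log2(normalized count + 1) minus group means, with 518400 exact pairings (720 within one group of 6), two-sided. An adjustment over the members alone had been planned and was not made, and the adjustment runs over all genes instead. The numbers of the lambs pair the tissues by animal, and the lamb's own pair of libraries correlated best, across all genes, in 11 of 12 treated lambs (the exception being lamb 240). The scripts were tested on simulated data. The members, lists and tests were chosen with earlier results of these data known. Named beside the members were ARNTL, NPAS2, each called gene of the clock list, and the 3 named genes most like DBP and NR1D1 in each tissue. The alternatives were TMM and median-of-ratios scaling, DESeq2's Wald test, all 3 controls, each lamb left out (the third control taking the place of a control left out), no filter, 2 groups only, the RNA integrity number as a covariate, the adjusted p alone, the lamb as a block, and for correlations rho, a pseudocount of 16 and other sets of lambs. All 3 controls with TMM, and the block with TMM, were chosen after seeing the data. P-values measure the spread between these lambs. In the fits of both tissues without the block they measure the spread between libraries, with the pairing by lamb left out.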

Additional observations from a re-analysis of the deposited data

Results flagged for a closer look

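TEF in BAT of AT lamb 243 stood apart from the other 5 AT lambs, at a normalized count of 838, with the next lamb at 634 and the lowest at 542. On the log scale its gap to the next lamb was 0.641 of the range of the group, above Dixon's critical value of 0.625 for 6 lambs. It was the 1 such value among the 40 groups of 6 lambs examined for the 10 genes. Chance alone gives about 1 in 20 groups, so 1 among 40 was not above that rate. Lamb 243 was also among the higher AT lambs for DBP (1886) and PER3 (491) in BAT.

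TEF differed between the tissues in its response at AT by a log2FC of 1.32 ± 0.34 (adjusted p = 0.0412, edgeR), by a test of the difference itself. It was upregulated at AT in BAT (1.40 ± 0.27) and had a log2FC of 0.13 ± 0.23 in thyroid tissue. The call did not hold with the lamb as a block, with TMM or with all 3 controls.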

How the results depend on the processing

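The cause of the changes below was not tested. Of the 10 clock genes, those called in BAT in the cold against controls numbered 1, and 2 by DESeq2's Wald test (DBP and TEF). With all 3 controls, with or without TMM, the count was still 1, but the gene was DBP in place of TEF. In thyroid tissue the count of 2 in the cold became 1 with TMM, with median-of-ratios scaling, with all 3 controls, and with all 3 controls and TMM. The thyroid count of 2 at AT became 1 with TMM, with median-of-ratios scaling, and with all 3 controls and TMM, and 0 when only AT lambs and controls were fitted (DBP 1.30, adjusted p = 0.0519; CRY1 -1.19, adjusted p = 0.0662). The tissue difference at AT fell from 1 gene to 0 with the lamb as a replicate block, with TMM, and with both. No other call changed with the block except PER1 in BAT against thyroid and, at the adjusted p alone, PER2 (0.0748). Agreement between tissues rose from 1 gene to 2 with TMM and with Spearman's rho (NR1D1 and PER1), and pairs within BAT fell from 7 to 4 with TMM. Of the 7, those of PER3 with DBP, CRY2 with DBP and NR1D1 with NR1D2 were still there, and PER1 with NR1D2 (r = -0.72) was added.

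Leaving out each lamb in turn gave 0 to 1 called genes in BAT in the cold and 1 to 4 at AT. It gave 1 to 3 in thyroid tissue in the cold, 0 to 1 for the tissue difference in the cold and 0 to 5 at AT (5 with lamb 238 in the place of 237), and 1 to 3 for BAT against thyroid. Agreement ranged from 0 to 2 genes and pairs within thyroid tissue from 5 (without lamb 243) to 11. Cold against AT gave 0 in both tissues in each alternative run. Of 2230 gene values under alternatives none reversed a call, 69 lost one, 35 gained one, and 117 without a call had another sign.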
